A study of Mus musculus with 6 samples.

Results

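The 10 genes described here encode the core of MHC class II antigen presentation and well-known targets of interferon-gamma: H2-Aa, H2-Ab1, H2-Eb1, Cd74, Ciita, Cxcl9, Cxcl10, Gbp2, Irf1 and Psmb8. They were picked by gene symbol from the 48709 genes of a count table, and all 10 passed the filter on low counts that left 17757 genes for testing. The tissue was gingiva, the oral mucosa around the teeth, of 12-week-old C57BL/6 mice. Plg KO mice lack plasminogen, the precursor of the fibrin-dissolving protease plasmin, and were set against wild-type (Plg WT) littermates, with 3 RNA sequencing libraries each. The kind of Plg allele, any treatment and whether each library came from its own animal were not stated in the sources used here. The p-values therefore reflect library-to-library spread that may in part be technical. Libraries of each genotype differed in Y-linked transcripts, described below, so they did not all come from the same animal.

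MHC class II molecules are pairs of an alpha and a beta chain that display peptides from engulfed proteins to CD4 T cells. Dendritic cells, macrophages and B cells carry them at all times, and interferon-gamma, a cytokine of T cells and natural killer cells, can induce them in other cells, epithelium included. The cytokine signals through its receptor and Janus kinases, and GAS elements lie in responding genes such as Irf1. Irf1 in turn binds interferon-stimulated response elements (ISRE). The coactivator Ciita binds no DNA itself and works through factors that sit on the X and Y boxes of class II promoters.

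The sequences below show the elements through which these genes are known to be controlled, in 4 class II genes and 3 interferon targets whose windows held them. They are RefSeq promoter sequences on GRCm38.p6, 5′ to 3′ on the strand of the gene, and lie within the 250 bases before the RefSeq start. Gene positions elsewhere in the text are from GENCODE M21. By that annotation the last 12 bases shown for Gbp2, which hold the ISRE described below, lie inside the gene. So do the last 2 bases shown for H2-Ob and the last 1 for H2-Oa. Of the 10 members, 7 had a promoter that was used here. H2-Ab1 and Ciita had no entry in the promoter set, and the promoter of Cd74 is not reported here. Capitals mark an X box core (CNNGNAAC) followed by a Y box (ATTGG) in the class II genes, an ISRE (GAAA, then 2 free bases, then GAAA, on either strand) in Cxcl10 and Gbp2, and a GAS (TTCNNNGAA) in Irf1.
H2-Aa (chr17:34287824-34287953, minus strand): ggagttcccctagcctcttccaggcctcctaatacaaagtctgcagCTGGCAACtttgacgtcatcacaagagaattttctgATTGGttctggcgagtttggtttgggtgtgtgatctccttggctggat
H2-Eb1 (chr17:34305737-34305866, plus strand): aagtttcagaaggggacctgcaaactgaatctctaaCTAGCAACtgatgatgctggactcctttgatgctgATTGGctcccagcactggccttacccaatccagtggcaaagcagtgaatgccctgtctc
H2-Ob (chr17:34238775-34238904, plus strand): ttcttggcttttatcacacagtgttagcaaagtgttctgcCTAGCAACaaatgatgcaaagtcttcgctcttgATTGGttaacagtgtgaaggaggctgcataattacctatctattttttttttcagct
H2-Oa (chr17:34092249-34092340, plus strand): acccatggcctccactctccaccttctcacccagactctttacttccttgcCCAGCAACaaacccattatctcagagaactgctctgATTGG
Cxcl10 (chr5:92349010-92349139, minus strand): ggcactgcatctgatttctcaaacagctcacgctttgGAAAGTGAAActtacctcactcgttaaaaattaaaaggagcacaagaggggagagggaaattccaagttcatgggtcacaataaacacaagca
Gbp2 (chr3:142620533-142620613, plus strand): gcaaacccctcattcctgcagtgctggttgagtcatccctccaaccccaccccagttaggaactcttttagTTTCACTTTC
Irf1 (chr11:53769884-53770013, plus strand): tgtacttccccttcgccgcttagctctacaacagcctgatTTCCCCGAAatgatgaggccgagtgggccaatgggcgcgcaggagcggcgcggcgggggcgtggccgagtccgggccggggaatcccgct

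The first base of the X box core and that of the Y box lie 36 bases apart in H2-Aa and H2-Oa, 35 in H2-Eb1 and 33 in H2-Ob. Both strands were searched, with the letters and the allowed spacing of 25 to 40 bases set after these promoters had been read. The pair of boxes is present in 0.542% of all 32851 RefSeq promoters, the ISRE letters in 2.98% and the GAS letters in 7.02%. H2-DMb1 also holds the pair of boxes, at 36 bases, and H2-DMa and H2-DMb2, whose levels are compared below, do not. Psmb8 and H2-DMb2 hold the GAS letters and Cxcl9 neither those nor the ISRE letters in this window. Such matches describe the letters only.

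None of the 10 genes was called between Plg KO and Plg WT gingiva. The 3 class II chain genes and Cd74 were at similar levels in all 6 libraries, whereas the chemokine genes Cxcl9 and Cxcl10 varied many-fold inside each genotype. By the quasi-likelihood test of edgeR, with p-values adjusted over 17757 genes by Benjamini-Hochberg, 0 of 10 members passed an adjusted p of 0.05, against 0.237% of all genes tested (in Plg KO 0.191% higher and 0.0451% lower). At an unadjusted p of 0.05 there was 1, Cd74, lower in Plg KO, against 9.25% of all genes (4.97% higher and 4.27% lower). DESeq2 and limma-voom called 0 of the members. Over all genes DESeq2 called 275 higher and 128 lower, more than edgeR. In the gene lists used here limma-voom called only Clec4e, a neutrophil marker, so its lack of calls in a list says little. In 0 of the 10 did the libraries of one genotype lie clear of the other, against 14.7% of all genes (7.51% with Plg KO above and 7.18% with Plg KO below). The median log2 change of the members was -0.07, against -0.00 for all genes, with 4 positive and 6 negative. In bulk tissue, fewer cells of a type and less RNA per cell cannot be told apart.

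**Figure D1:**
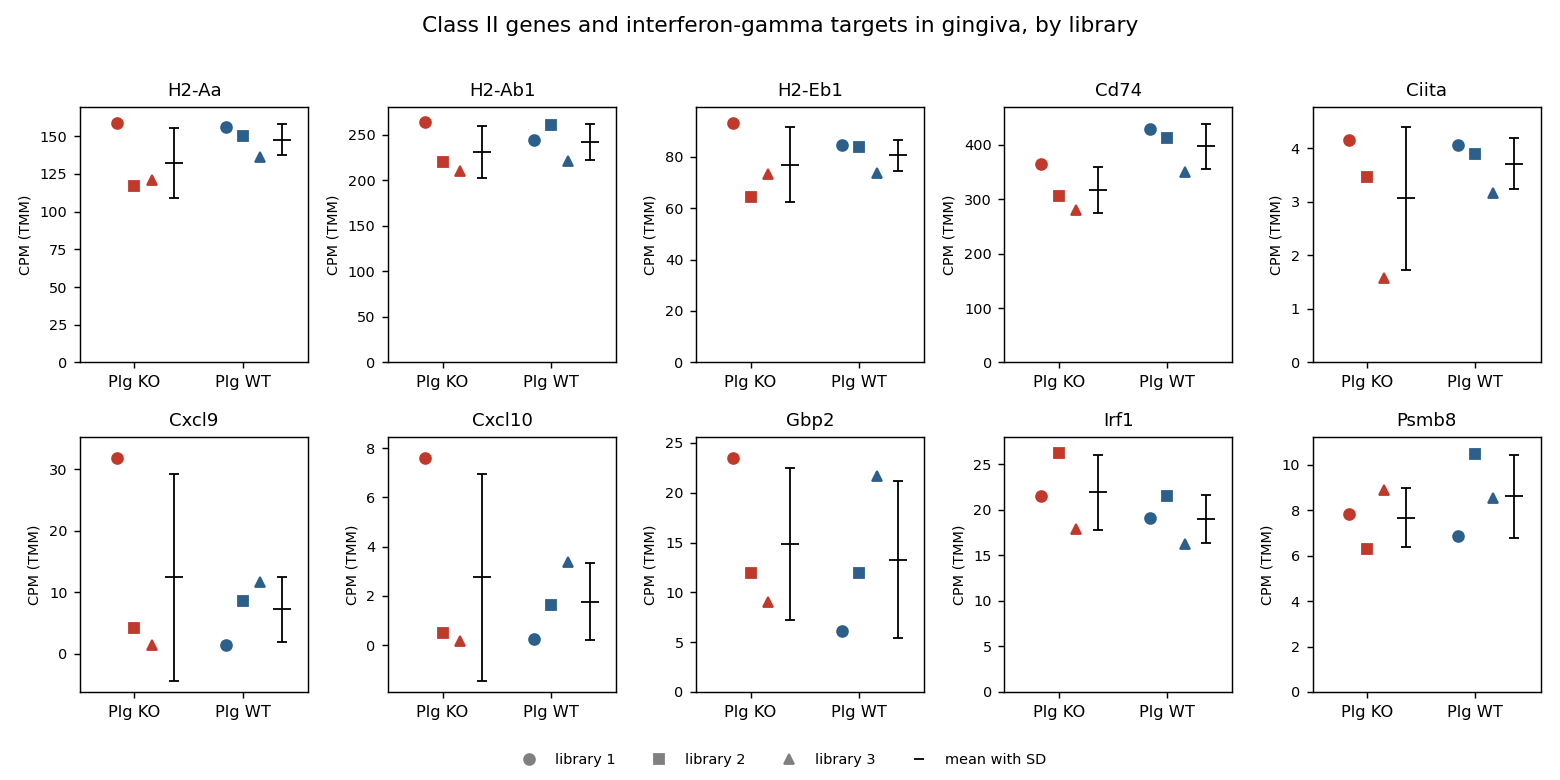
Level of each of the 10 genes in every library, in CPM (read counts scaled to library size, with TMM factors), with Plg KO in red on the left and Plg WT in blue on the right. Bars show the mean with SD of 3 libraries. The genotypes overlap in all 10 panels, and Cxcl9 and Cxcl10 are highest in Plg KO 1.

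H2-Ab1 encodes the beta chain of the I-A molecule, the class II molecule that C57BL/6 mice display (ENSMUSG00000073421, GRCm38 chromosome 17, 34257689 to 34269419). It had 264, 219.7 and 210.7 CPM in Plg KO 1, 2 and 3, against 245, 261 and 221 CPM in Plg WT 1, 2 and 3. The 2 genotypes covered nearly the same range. Its log2 difference was -0.07 ± 0.12 (SE, adjusted p = 0.923 in edgeR), with a 95% interval of 0.789- to 1.16-fold. H2-Aa, the I-A alpha chain (ENSMUSG00000036594, chromosome 17, 34282744 to 34287823), had 159, 117 and 121 CPM in Plg KO libraries and 156, 150.4 and 136 CPM in Plg WT libraries. Plg KO 1 was the highest of all 6, and the other Plg KO libraries were the lowest. Its log2 difference was -0.16 ± 0.14 (SE, adjusted p = 0.789 in edgeR).

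H2-Eb1 (ENSMUSG00000060586, chromosome 17, 34305867 to 34316674) encodes the beta chain of the I-E molecule. C57BL/6 mice are known to lack I-E on the cell surface because their alpha chain gene is defective. The beta chain transcript was present, at 93.0, 64.3 and 73.3 CPM in Plg KO libraries, against 84.4, 83.7 and 73.5 CPM in Plg WT libraries, and the genotypes overlapped. The log2 difference was -0.07 ± 0.14 (SE, adjusted p = 0.937 in edgeR). The alpha chain pseudogene H2-Ea-ps was listed at 0 counts in all 6 libraries. A count of 0 allows up to 3 counts, or 0.0810 to 0.117 CPM depending on the library, for counting error only.

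Cd74 (ENSMUSG00000024610, chromosome 18, 60803848 to 60812652) encodes the invariant chain, which fills the class II groove until the molecule reaches the compartment where peptides are loaded. It was the most abundant of the 10, with 365, 306 and 281 CPM in Plg KO libraries, against 430, 412 and 350.1 CPM in Plg WT libraries. Plg KO 1 lay above Plg WT 3 and the other Plg KO libraries lay below all Plg WT libraries. The means were 317 ± 43.2 CPM in Plg KO and 397 ± 41.8 CPM in Plg WT (SD, n = 3 each). The log2 difference was -0.33 ± 0.13 (SE), the smallest p among the 10 genes, and it did not pass the test over all genes (adjusted p = 0.506 in edgeR). Summed, H2-Aa, H2-Ab1, H2-Eb1 and Cd74 made up 0.0881%, 0.0706% and 0.0685% of normalized counts in Plg KO 1, 2 and 3 and 0.0915%, 0.0907% and 0.0781% in Plg WT 1, 2 and 3.

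Ciita, the coactivator on which class II transcription depends (ENSMUSG00000022504, chromosome 16, 10480059 to 10528418), was scarce. It had 4.16, 3.46 and 1.57 CPM in Plg KO libraries, against 4.07, 3.89 and 3.17 CPM in Plg WT libraries. The 2 ends of the range were both Plg KO libraries, with Plg KO 1 highest and Plg KO 3 lowest. Ciita overlaps Dexi on the other strand, which had 6.84 ± 0.609 CPM in Plg KO and 6.47 ± 0.519 CPM in Plg WT (SD, n = 3 each), and the libraries do not mark strand. The log2 difference was -0.28 ± 0.35 (SE, adjusted p = 0.873 in edgeR) and turned to 0.04 when Plg KO 3 was left out. Of 7 genes for factors that bind the X and Y boxes, edgeR called 0 (0 below 0.05 before adjustment; DESeq2 and limma-voom also 0), with a median log2 change of -0.10. Nfyc, a subunit of the Y box factor NF-Y, had 22.9, 23.8 and 21.5 CPM in Plg KO libraries and 24.6, 24.9 and 26.4 CPM in Plg WT libraries, without overlap and with an adjusted p of 0.706 in edgeR. Its partner Nfyb and Creb1, a factor of the X box complex, had log2 differences of 0.15 ± 0.11 and 0.18 ± 0.13 (SE). Rfx5, the X box factor whose loss causes class II deficiency in humans, had 1.20 ± 0.340 CPM in Plg KO and 1.28 ± 0.291 CPM in Plg WT (SD, n = 3 each).

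Per length, Cd74, H2-Ab1, H2-Eb1 and H2-Aa stood above the other 6 members. Levels here are CPM per 1 kb of merged exons in GENCODE M21, given as mean ± SD of 3 libraries, and they understate genes with long rare exons. Cd74 had 189 ± 25.7 in Plg KO and 237 ± 24.9 in Plg WT. H2-Ab1 followed with 90.1 ± 11.1 in Plg KO and 94.3 ± 7.78 in Plg WT. Next were H2-Eb1, with 39.5 ± 7.56 in Plg KO and 41.4 ± 3.14 in Plg WT, and H2-Aa, with 34.8 ± 6.11 in Plg KO and 38.9 ± 2.72 in Plg WT, which did not differ beyond their spread. Gbp2, Irf1, Cxcl9 and Psmb8 had means of 5.90, 5.51, 4.13 and 2.27 in Plg KO and 5.27, 4.77, 2.39 and 2.55 in Plg WT, and each gene's genotypes overlapped. Cxcl10 averaged 1.23 in Plg KO and 0.786 in Plg WT, and Ciita 0.321 in Plg KO and 0.389 in Plg WT.

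Relative to H2-Ab1, the invariant chain transcript was lower in every Plg KO library than in any Plg WT library. The ratio of Cd74 to H2-Ab1 CPM was 1.38, 1.39 and 1.33 in Plg KO 1, 2 and 3, against 1.76, 1.58 and 1.58 in Plg WT 1, 2 and 3, and the genotypes did not overlap. Its log2 difference was -0.26, with p = 0.10 in a two-sided exact permutation test, the smallest p that 3 against 3 libraries can give. The ratio of H2-Eb1 to H2-Ab1 was 0.331 ± 0.0333 in Plg KO and 0.333 ± 0.0120 in Plg WT (SD, n = 3 each), and that of H2-Aa to H2-Ab1 was 0.569 ± 0.0351 in Plg KO and 0.610 ± 0.0314 in Plg WT. These overlapped, with p = 1 and p = 0.20 in the same exact permutation test. In all, 9 ratios were computed, chosen after the levels had been seen, and 4 of them reached that smallest exact permutation p, which adjustment over the 9 ratios would raise.

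Genes that edit the peptide load of class II molecules split into a group with lower values in Plg KO and a group without. Of 10 tested genes of class II processing and loading, edgeR called 0. Below 0.05 before adjustment 3 were lower and 0 higher, against 4.27% and 4.97% of all genes. Those 3 were H2-DMb2, H2-Ob and H2-Oa. H2-DMa fell just short, with an unadjusted p of 0.0501 in edgeR. In these genes, 4 of the 10, all Plg KO libraries lay below all Plg WT libraries, against 7.18% of all genes. DESeq2 called H2-DMb2 (adjusted p = 0.00366) and H2-Ob (adjusted p = 0.0223) lower, and limma-voom called 0. The list's median log2 change was -0.06.

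H2-Ob and H2-Oa encode the chains of H2-O, which restrains the peptide exchanger H2-M and is found mainly in B cells and some dendritic cells. H2-Ob had 2.13, 1.48 and 2.997 CPM in Plg KO libraries, against 9.85, 5.57 and 3.40 CPM in Plg WT libraries. Every Plg KO library was below every Plg WT library, though Plg KO 3 and Plg WT 3 lay close. Its log2 difference was -1.50 ± 0.43 (SE, adjusted p = 0.293 in edgeR). H2-Oa had 0.567, 0.233 and 0.672 CPM in Plg KO libraries, against 2.13, 1.04 and 1.03 CPM in Plg WT libraries, again without overlap. Its log2 difference was -1.48 ± 0.48 (SE, adjusted p = 0.374 in edgeR). These levels rest on 51 counts over the Plg KO libraries and 139 over the Plg WT libraries.

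H2-M itself is made of an alpha chain, from H2-DMa, and a beta chain, from either of a pair of close paralogs, H2-DMb1 and H2-DMb2, of which H2-DMb2 is the one most used by B cells. H2-DMb2 had 3.13, 3.30 and 3.59 CPM in Plg KO libraries, against 15.0, 7.21 and 5.73 CPM in Plg WT libraries, and its log2 difference was -1.48 ± 0.36 (SE, adjusted p = 0.214 in edgeR). H2-DMb1 had 11.8, 7.54 and 10.4 CPM in Plg KO libraries, against 11.7, 9.78 and 11.1 CPM in Plg WT libraries, and the genotypes overlapped. The ratio of H2-DMb2 to H2-DMb1 was 0.349 ± 0.0865 in Plg KO and 0.843 ± 0.392 in Plg WT (SD, n = 3 each), a log2 difference of -1.20 with p = 0.10 in the exact permutation test. The sources used here do not give how reads shared by these paralogs were divided. H2-DMa had a log2 difference of -0.30 ± 0.13 (SE, adjusted p = 0.541 in edgeR), with 12.5, 11.8 and 11.5 CPM in Plg KO libraries and 15.8, 15.5 and 12.8 CPM in Plg WT libraries. It overlaps the far more abundant Brd2 on the other strand, with 153.3 ± 7.67 CPM in Plg KO and 153.1 ± 19.3 CPM in Plg WT (SD, n = 3 each).

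The proteases and the thiol reductase that prepare antigen did not share that pattern. Ctss, cathepsin S, which trims the invariant chain, had 46.4, 27.4 and 18.4 CPM in Plg KO libraries and 20.3, 21.2 and 19.3 CPM in Plg WT libraries. Its log2 difference of 0.60 ± 0.30 (SE) did not pass (adjusted p = 0.622 in edgeR). Ctsl, Ifi30 and Lgmn had log2 differences of 0.12 ± 0.12, 0.02 ± 0.13 and 0.11 ± 0.16.

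Summed B cell transcripts, like H2-Ob, H2-Oa and H2-DMb2, were lower in every Plg KO library than in any Plg WT library. The summed level of 8 B cell markers was 3.50 to 4.87 CPM in Plg KO libraries and 17.6 to 78.3 CPM in Plg WT libraries. In Plg WT 1, which had the highest sum, H2-Ob, H2-Oa, H2-DMb2 and the Cd74 to H2-Ab1 ratio were also highest. The Cd74 ratio and the sum were both lower in Plg KO, but within a genotype their order did not match elsewhere. In Plg KO it was lowest, at 1.33, in Plg KO 3, which had the highest Plg KO sum. It was 1.58 in both Plg WT 2 and Plg WT 3, whose sums were 30.4 and 17.6 CPM. H2-Oa was also nearly equal in those libraries, at 1.04 and 1.03 CPM. H2-DMb2 was lowest in Plg KO 1, whereas the sum was lowest in Plg KO 2. Cd79b, a signalling chain of the B cell receptor, had 0.486, 0.544 and 0.868 CPM in Plg KO libraries, against 14.3, 6.14 and 1.95 CPM in Plg WT libraries. Ms4a1 and Pax5 were at 0 counts in Plg KO 2, and no marker was at 0 in all Plg KO libraries. No B cell marker was called by edgeR (6 of 7 tested were lower at an unadjusted p under 0.05, against 4.27% of all genes). DESeq2 called 6 of these markers lower and limma-voom 0. Their part in the class II results was not tested.

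**Figure D2:**
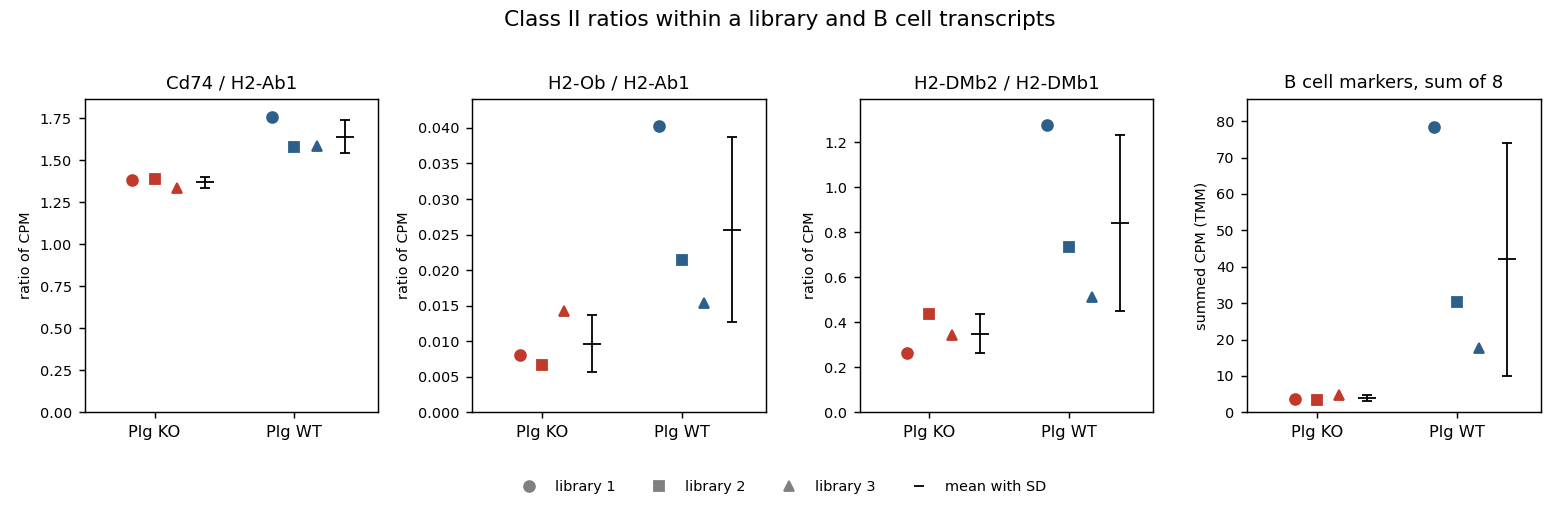
Ratios of CPM within each library and, on the right, the summed CPM of 8 B cell markers, with Plg KO on the left of each panel and Plg WT on the right. Bars show the mean with SD of 3 libraries. In each panel the Plg KO libraries lie below the Plg WT libraries, and Plg WT 1 is the highest of the 6. The ratios shown are all from those without overlap between genotypes, and the ratios that overlapped are not shown.

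The summed markers of the other professional antigen-presenting cells overlapped between genotypes. The 9 dendritic cell markers summed to 33.9 to 44.4 CPM in Plg KO libraries and 37.3 to 40.9 CPM in Plg WT libraries, and the 8 macrophage markers to 94.1 to 122.4 CPM in Plg KO libraries and 98.6 to 112.9 CPM in Plg WT libraries. Like H2-Aa, H2-Eb1, Ciita and Ctss, these sums were highest in Plg KO 1. Averaged over both genotypes, the most abundant dendritic cell markers were Cd207, the langerin of Langerhans cells, and Dpp4, and the complement gene C1qb was among the most abundant macrophage markers. Single markers did differ in places. Cd209a had 6.31 ± 1.17 CPM in Plg KO and 8.85 ± 1.54 CPM in Plg WT (SD, n = 3 each; adjusted p = 0.530 in edgeR) and was the highest of the list in Plg WT. Xcr1, a chemokine receptor of cross-presenting dendritic cells, had 1.48, 1.24 and 0.980 CPM in Plg KO libraries, against 0.846, 0.4998 and 0.705 CPM in Plg WT libraries, without overlap (adjusted p = 0.478 in edgeR). Lyve1, a receptor of some resident macrophages and of lymphatic endothelium, had 3.59 ± 0.351 CPM in Plg KO and 7.19 ± 0.883 CPM in Plg WT (SD, n = 3 each; adjusted p = 0.0892 in edgeR), without overlap, and DESeq2 called it lower. The 6 epithelial keratin genes of the tissue check, led by Krt4 and Krt14, summed to 43298 to 52325 CPM in Plg KO libraries and 42932 to 51791 CPM in Plg WT libraries, and 6 fibroblast genes, led by Col1a1 and Col3a1, to 1387 to 2552 CPM in Plg KO libraries and 2175 to 3678 CPM in Plg WT libraries. All 6 fibroblast genes had a negative log2 change, with a median of -0.47. Below 0.05 before adjustment 3 were lower, and 2 were lower without overlap, against 4.27% and 7.18% of all genes. None was called by edgeR, DESeq2 or limma-voom, and their part in the class II values was not tested.

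**Figure D3:**
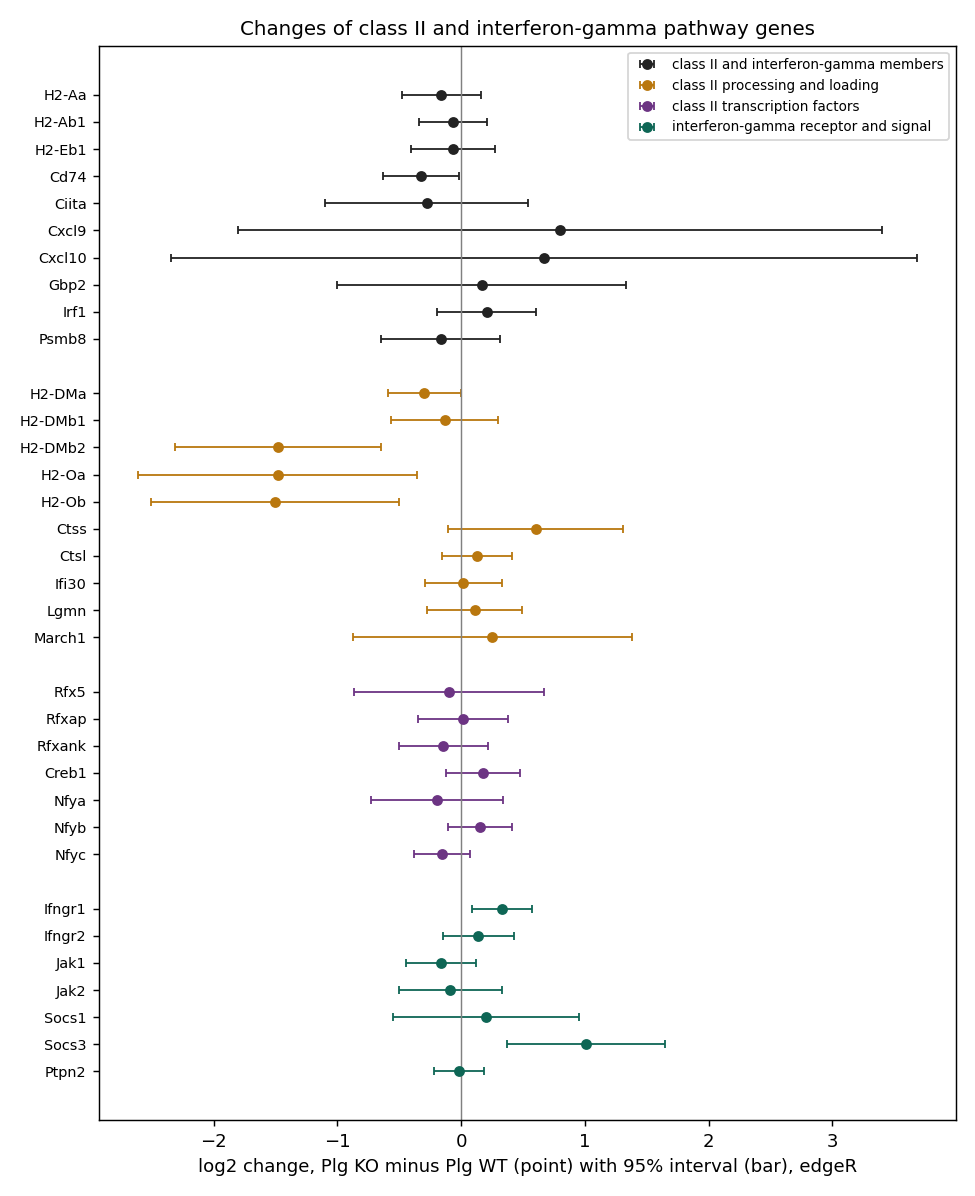
Log2 change in Plg KO relative to Plg WT (points) with 95% intervals (bars) from edgeR for the 10 members and for genes of class II processing, class II transcription factors and interferon-gamma signalling, with 1 signalling gene not shown. The intervals of H2-Aa, H2-Ab1 and H2-Eb1 are short and include 0, those of Cxcl9 and Cxcl10 span several log2 units, and H2-DMb2, H2-Oa and H2-Ob lie near -1.5.

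Cxcl9 and Cxcl10 encode chemokines that draw T cells and natural killer cells through the receptor Cxcr3. Cxcl9 (ENSMUSG00000029417, chromosome 5, 92321347 to 92328079) had 31.8, 4.16 and 1.37 CPM in Plg KO libraries, against 1.45, 8.57 and 11.6 CPM in Plg WT libraries. Plg KO 1 was 7.65 times Plg KO 2 and 23.2 times Plg KO 3, and the highest Plg WT library was 8.04 times the lowest. The log2 difference of 0.80 ± 1.11 (SE, adjusted p = 0.888 in edgeR) had a 95% interval of 0.287- to 10.6-fold. Without Plg KO 1 it was -1.41, and the sign also turned in other fits that kept that library.

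Cxcl10 (ENSMUSG00000034855, chromosome 5, 92346638 to 92348889) followed the same order of libraries. It had 7.61, 0.505 and 0.168 CPM in Plg KO libraries, against 0.273, 1.64 and 3.40 CPM in Plg WT libraries. The lowest levels rest on few reads, with 6 counts in Plg KO 3 and 10 in Plg WT 1. The log2 difference was 0.67 ± 1.29 (SE, adjusted p = 0.928 in edgeR), or -2.44 without Plg KO 1. Cxcl10 lies inside Art3 on the other strand, and the libraries do not mark strand. Art3 had 6.21, 13.9 and 21.1 CPM in Plg KO libraries and 19.9, 13.5 and 12.5 CPM in Plg WT libraries, the reverse of the order of Cxcl10 within each genotype. Cxcr3, the receptor, was close to the limit of detection, with 35 counts over the Plg KO libraries and 35 over the Plg WT libraries.

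Gbp2 (ENSMUSG00000028270, chromosome 3, 142620602 to 142638008), a guanylate-binding GTPase that attacks vacuoles holding microbes, had 23.5, 12.0 and 9.05 CPM in Plg KO libraries, against 6.11, 12.0 and 21.7 CPM in Plg WT libraries. As with the chemokines, Plg KO 1 and Plg WT 3 were the highest of their genotypes and Plg KO 3 and Plg WT 1 the lowest. The log2 difference was 0.17 ± 0.50 (SE, adjusted p = 0.958 in edgeR), or -0.34 without Plg KO 1 and -0.18 without Plg WT 1. Across the 6 libraries, which differ in depth and tissue mix, Pearson's r on log2 CPM was 0.984 between Cxcl9 and Cxcl10, 0.919 between Cxcl9 and Gbp2, and 0.114 between Gbp2 and H2-Aa. Among the class II genes, r was 0.891 between H2-Aa and H2-Ab1 and 0.934 between H2-Aa and H2-Eb1.

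Plg KO 1 and Plg WT 3, the libraries with the most Cxcl10 and Gbp2 in each genotype, were also the only ones with Y-linked transcripts. Ddx3y, a Y-linked helicase gene, had 1838 counts in Plg KO 1 and 1475 in Plg WT 3 and at most 2 in any other library, while Xist had 2 and 10 counts there and 917 to 1129 elsewhere. Within the 4 libraries with Xist, 2 against 2, edgeR gave log2 differences of -0.88 for Cxcl9, -1.53 for Cxcl10 and 0.21 for Gbp2, none of them called. With a term for these transcripts in the fit, Cxcl9 was at -0.03 and Cxcl10 at -0.32. Plg KO 1 also had the least skeletal muscle RNA, with 2335 CPM over 7 muscle markers led by Acta1 and Ckm, against 8994 and 10776 CPM in Plg KO 2 and 3 and 5415 to 10289 CPM in Plg WT libraries. Salivary gland markers, led by Dcpp1 and Aqp5 and with Prol1 and Smr2 at 0 throughout, summed to 390.1 to 734 CPM in Plg KO libraries and 119.0 to 719 CPM in Plg WT libraries. The part of sex or of tissue mix in the chemokine values was not tested further.

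Irf1 and Psmb8 varied little. Irf1 (ENSMUSG00000018899, chromosome 11, 53770014 to 53778374), a transcription factor that interferon-gamma induces early, had 21.6, 26.2 and 18.0 CPM in Plg KO libraries, against 19.1, 21.5 and 16.3 CPM in Plg WT libraries. The ranges overlapped, with a log2 difference of 0.21 ± 0.17 (SE, adjusted p = 0.781 in edgeR). It did not follow the chemokines across libraries, with r = 0.143 to Cxcl9. Psmb8 (ENSMUSG00000024338, chromosome 17, 34197721 to 34201454) encodes a catalytic subunit of the immunoproteasome, which replaces Psmb5 and cuts peptides for MHC class I. It had 7.86, 6.29 and 8.88 CPM in Plg KO libraries, against 6.85, 10.5 and 8.52 CPM in Plg WT libraries, with a log2 difference of -0.16 ± 0.21 (SE, adjusted p = 0.873 in edgeR). Its ratio to Psmb5 was 0.0692 ± 0.0163 in Plg KO and 0.0779 ± 0.0134 in Plg WT (SD, n = 3 each), which overlapped. Psmb5, Psmb6 and Psmb7, the standard catalytic subunits, had log2 differences of 0.03, 0.06 and 0.02.

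Ifng itself was at the floor of detection. It had 1 count over the Plg KO libraries, in Plg KO 1, and 3 counts over the Plg WT libraries, and it was not tested. Its inducer Il18, which epithelium stores, had 35.4 ± 3.78 CPM in Plg KO and 35.2 ± 4.20 CPM in Plg WT (SD, n = 3 each), and of 5 tested genes in that list edgeR called 0 (0 below 0.05 before adjustment; DESeq2 and limma-voom also 0). The members of that list with the smallest p were Il18r1, Il12rb2 and Il12rb1, receptor chains for interleukin-18 and interleukin-12, with log2 differences of 0.83 ± 0.39, -0.37 ± 0.35 and 0.53 ± 0.68 (SE). Markers of cells that could make interferon-gamma overlapped in sum. Summed, 8 natural killer cell markers had 4.18 to 6.53 CPM in Plg KO libraries and 4.77 to 8.39 CPM in Plg WT libraries. Nkg7 and Klrk1 were the most abundant of them. The sum of 8 T cell markers was 48.1 to 50.4 CPM in Plg KO libraries and 49.5 to 58.6 CPM in Plg WT libraries. It was mainly Cd5, lower in every Plg KO library than in any Plg WT library, and Trbc2, higher in every one. Of 7 T cell markers tested, 6 had a negative log2 change, against 9024 of the 17757 genes tested. Their median was -0.26, and edgeR called 0. Cd4, the coreceptor that binds class II, had 0.864, 0.932 and 1.23 CPM in Plg KO libraries and 1.36, 1.999 and 0.288 CPM in Plg WT libraries.

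The interferon-gamma receptor was well expressed. Ifngr1, the ligand-binding chain, had 117, 117 and 103 CPM in Plg KO libraries, against 83.9, 84.9 and 99.6 CPM in Plg WT libraries, and the genotypes did not overlap. The receptor chain differed by a log2 value of 0.33 ± 0.10 (SE, adjusted p = 0.358 in edgeR). Ifngr2, the second chain, had 98.8 ± 15.2 CPM in Plg KO and 89.7 ± 2.32 CPM in Plg WT (SD, n = 3 each).

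The feedback inhibitors differed from each other. Socs1, the inhibitor that interferon-gamma is best known to induce, had 0.757 ± 0.136 CPM in Plg KO and 0.655 ± 0.123 CPM in Plg WT (SD, n = 3 each). Socs3, which mainly restrains signals of the interleukin-6 family and of G-CSF, had 19.6, 31.3 and 17.2 CPM in Plg KO libraries, against 11.03, 14.2 and 8.52 CPM in Plg WT libraries, without overlap. Socs3 had a log2 difference of 1.01 ± 0.27 (SE, adjusted p = 0.268 in edgeR, 0.0237 in DESeq2). Of the 8 receptor and signalling genes edgeR called 0 (2 higher at an unadjusted p under 0.05, Ifngr1 and Socs3, against 4.97% of all genes). DESeq2 called Socs3 higher and limma-voom called 0, and the list's median log2 change was 0.06. The sum of 7 neutrophil markers, mainly S100a9 and S100a8, had the same order of libraries as Socs3 in Plg KO, with 216, 491 and 137 CPM in Plg KO 1, 2 and 3, against 28.8, 51.3 and 68.0 CPM in Plg WT 1, 2 and 3. In Plg WT the order differed, with the highest neutrophil sum and the lowest Socs3 in Plg WT 3. Of 6 neutrophil markers tested, 6 were higher at an unadjusted p under 0.05 in edgeR, against 4.97% of all genes. All 6 were higher without overlap, against 7.51% of all genes. Among them edgeR called 1 higher, DESeq2 5 and limma-voom 1. The part of neutrophil RNA in these values was not tested.

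Like the receptor and signalling genes, other interferon-gamma targets gave no call by edgeR. Of 14 GTPases of the Gbp and immunity-related families, 12 had a negative and 2 a positive log2 change, against 9024 and 8733 of all genes tested. The median was -0.32, with 0 below 0.05 before adjustment (DESeq2 and limma-voom also called 0). Their sum was 97.6, 57.5 and 68.3 CPM in Plg KO libraries, against 60.4, 93.2 and 127.8 CPM in Plg WT libraries, so Plg KO 1 and Plg WT 3 were again highest. Gbp9, Gbp4 and Gbp3 had the smallest p, with log2 differences of -0.45 ± 0.23, -0.54 ± 0.29 and -0.53 ± 0.38 (SE). With the mean pattern of Cxcl9, Cxcl10 and Gbp2, a pattern chosen after its values were seen, these GTPases had a median r of 0.723 over the 6 libraries, against 0.0692 for 10940 genes of at least 5 CPM. An r over 0.7 was found for 9 of the 14 GTPases and for 15.6% of the 10940 genes. The genes most like the pattern were Yeats4, Zfp398 and Pask, so nothing on shared control follows. Several of these genes, such as Tgtp1 and Tgtp2, are near-copies, and the split of reads between them is uncertain.

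Of 9 further tested targets, edgeR called 0 and limma-voom 0. In edgeR, Cd274 and Ubd were higher at an unadjusted p under 0.05, against 4.97% of all genes. Cd274, which encodes the checkpoint ligand PD-L1, had 5.83, 4.62 and 3.89 CPM in Plg KO libraries, against 1.80, 2.75 and 2.72 CPM in Plg WT libraries. The genotypes did not overlap, and the log2 difference was 0.98 ± 0.25 (SE, adjusted p = 0.241 in edgeR, 0.0384 in DESeq2). Ubd, a ubiquitin-like modifier, had 0.965 ± 0.331 CPM in Plg KO and 0.420 ± 0.230 CPM in Plg WT (SD, n = 3 each). Wars, a tRNA synthetase that interferon-gamma induces, had a log2 difference of -0.13 ± 0.10 (SE). Cxcl11, the third ligand of Cxcr3, had 15 counts over the Plg KO libraries, and 3 over the Plg WT libraries, and was not tested.

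Among receptors and costimulators at the contact with T cells, edgeR called 0 of 6 and limma-voom 0. Below 0.05 before adjustment in edgeR, 1 was higher and 1 lower, against 4.97% and 4.27% of all genes. Cd80, a costimulatory ligand of activated antigen-presenting cells, had 2.24, 2.45 and 1.09 CPM in Plg KO libraries, against 0.655, 0.393 and 0.705 CPM in Plg WT libraries, without overlap. Cd80 had a log2 difference of 1.70 ± 0.41 (SE, adjusted p = 0.210 in edgeR, 0.0202 in DESeq2). Cd86, its relative, had a log2 difference of 0.70 ± 0.38 (SE), and Cd28, the T cell receptor for both, one of -1.09 ± 0.46 (SE, adjusted p = 0.538 in edgeR).

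Part of the MHC class I pathway, which interferon-gamma also induces, was lowest in Plg WT 1: Nlrc5, B2m, H2-K1, H2-D1, Tap1, Psmb9 and Psme1 were, whereas Psmb10, Psme2, Tap2, Tapbp, Tapbpl and Erap1 were not. Nlrc5, the class I counterpart of Ciita, had 33.1, 19.6 and 27.9 CPM in Plg KO libraries, against 8.11, 26.4 and 45.4 CPM in Plg WT libraries. B2m, the light chain of class I molecules, had 225, 148 and 215 CPM in Plg KO libraries, against 91.4, 229 and 244 CPM in Plg WT libraries. Both were lowest in Plg WT 1, and both overlapped between genotypes. Of 13 class I pathway genes edgeR called 0 (0 below 0.05 before adjustment; DESeq2 and limma-voom also 0), with a median log2 change of 0.01. The smallest p were those of the immunoproteasome subunit Psmb10, the loading chaperone Tapbp and its relative Tapbpl, with log2 differences of -0.23 ± 0.12, -0.19 ± 0.10 and 0.22 ± 0.13 (SE).

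The summed type I interferon response genes had the same order of libraries within each genotype as Cxcl9 and Cxcl10. This 12-gene sum was 70.6, 59.7 and 50.9 CPM in Plg KO libraries, against 43.9, 119.9 and 230.0 CPM in Plg WT libraries. Plg WT 3 was the highest, and Plg KO 1 did not stand out as it did for Cxcl9. Their median r with the pattern of Cxcl9, Cxcl10 and Gbp2 was 0.638, against 0.0692 for 10940 genes. Of the 12 genes 1 had an r over 0.7, against 15.6% of those 10940. Isg15, a ubiquitin-like interferon product, had 7.32, 6.22 and 3.87 CPM in Plg KO libraries and 3.14, 24.8 and 48.4 CPM in Plg WT libraries. Isg15 had a log2 difference of -2.13 ± 0.81 (SE, adjusted p = 0.468 in edgeR), and Ifi44 and Ifit1 had -2.00 ± 0.77 and -1.65 ± 0.73 (SE). A negative log2 change was found in 11 of the 12 genes, against 9024 of the 17757 genes tested. Here edgeR called 0 (2 lower at an unadjusted p under 0.05, against 4.27% of all genes) and so did DESeq2 and limma-voom. Without Plg WT 1, the library with the lowest level of both genes, edgeR called Isg15 (adjusted p = 0.0341) and Ifi44 (adjusted p = 0.0375) lower. Of the fits that left out 1 library, that fit also gave the most calls over all genes.

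**Figure D4:**
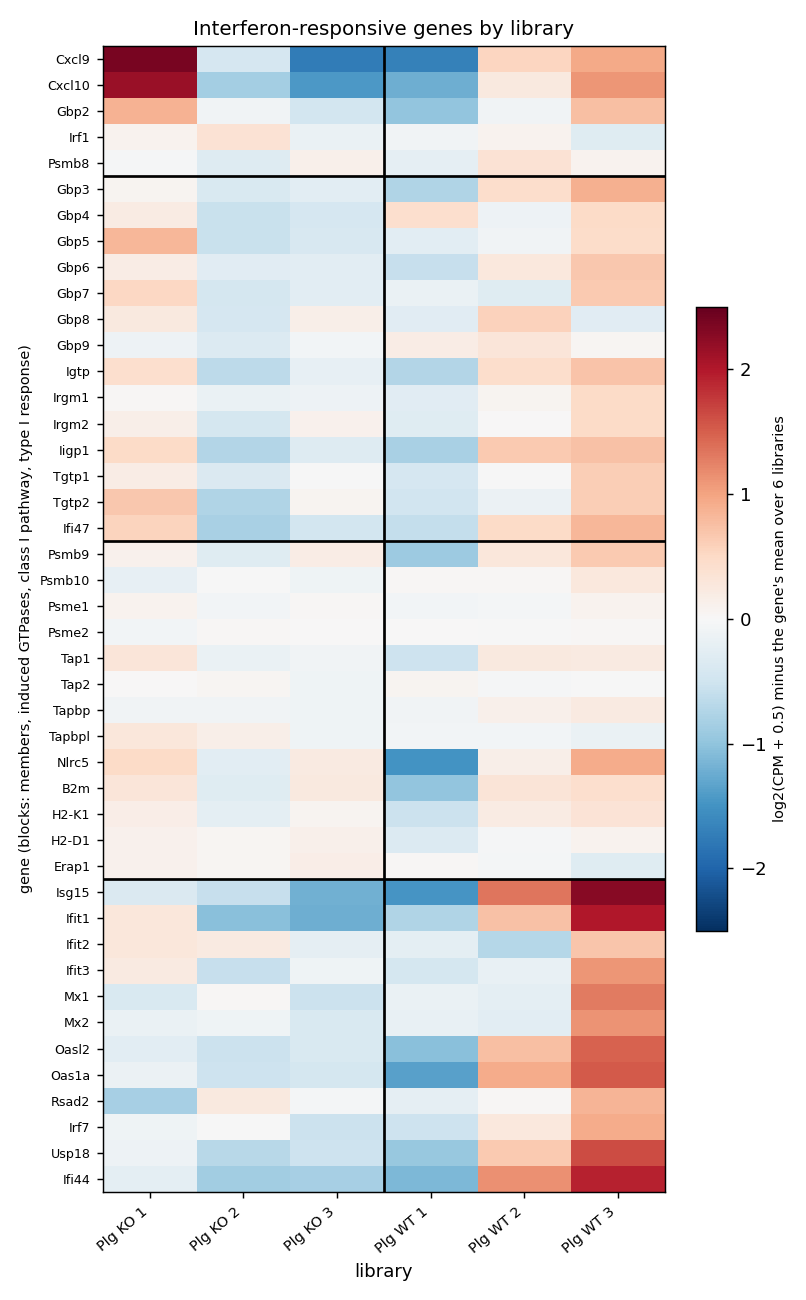
Level of interferon-responsive genes in each library as log2(CPM + 0.5) minus the mean of the gene over the 6 libraries, with Plg KO libraries on the left and Plg WT libraries on the right. Lines separate members, GTPases, class I genes and type I response genes. Cxcl9, Cxcl10 and Gbp2 are highest in Plg KO 1, most type I response genes in Plg WT 3, and Nlrc5 and B2m are lowest in Plg WT 1.

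The genes whose levels most resembled the class II pattern across libraries were not class II genes, apart from a member. The pattern was the mean of the standardized log2 CPM of H2-Aa, H2-Ab1, H2-Eb1 and Cd74, highest in Plg KO 1 (0.92) and lowest in Plg KO 2 (-1.10). Among 10940 genes that averaged 5 CPM or more, the 10 with the highest Pearson's r were Thap2, H2-Aa, Osbpl11, Mri1, Pyroxd1, Bag4, Rnf6, Cyb5r3, Mfap1b and Tchh, with r of 0.961 to 0.990 over 6 libraries. H2-Ab1 came at rank 20 and H2-Eb1 at rank 32, and Cd74 came below rank 40. These genes and H2-Aa are part of the pattern, which raises their own r. The points are 6 libraries that differ in depth and tissue mix, 60 of the 10940 genes had r above 0.9, and nothing on shared control follows from them.

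Over all genes, 34 were called higher and 8 lower in Plg KO. Total gene counts were 26183389 to 36429150 in Plg KO libraries and 28184139 to 36006829 in Plg WT libraries. Plg had 2 counts over the Plg KO libraries and 2 over the Plg WT libraries, which gives no check of the labels in this tissue. No library repeated another, since chi-square divided by its degrees of freedom was 21.4 to 111.4 between pairs.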

How the data were processed

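Raw counts per gene, as deposited by the authors, were used for 48709 genes; 22 entries that name no gene took at most 3.55e-05% of a library and were left out. A second table, deposited by the authors, holds CPM values after TMM scaling; it gave 21658 gene names, and 26691 more came from the reference. Dividing each CPM column by its smallest value above 0 gave whole reads for 100% of values. The tolerance was the larger of 0.01 reads and 0.01 of the value, so high values could not fail. After rounding, the values equalled the raw counts. Per the submitters' processing notes, the tools were DESeq2, edgeR, limma and STAR 2.5.2a and the builds GRCm38.p3 and mm10, with no role given; the sources used here do not give the counting tool. Per the labels' protocols, libraries were Nextera XT, which does not mark strand, with 37 bp paired-end reads.

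Genes were tested with edgeR 4.0.16 under R 4.3.3 (quasi-likelihood F test, TMM, filterByExpr, genotype only, Benjamini-Hochberg over 17757 genes, called at an adjusted p under 0.05). The common biological coefficient of variation was 0.225. CPM in the text are TMM-normalized counts from this fit, and the SE is the log2 change divided by the square root of F. Alternatives were DESeq2 1.42.0, limma-voom (limma 3.58.1), RLE and upper-quartile factors, other filters, a replicate block, a sex term, an adjusted p under 0.10 and leaving out each library; the 4 libraries with Xist and the recovered reads were added after seeing the data. Scripts were tested on simulated data. Members and gene lists were chosen with earlier results of these data known. Named genes are the members, a preset set of pathway genes, called genes the 3 of smallest p in each pathway list, the 2 of highest mean CPM in each marker list and the 10 most like the class II pattern; H2-Ea-ps, Art3, Lyve1, Cd86, Cxcl11, the ratios and the other genes outside this rule were chosen after their values were seen. Positions and merged exons came from GENCODE M21 on GRCm38. A few genes that the naming rule covers are not reported here by name, though counts and sums over their lists include them.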

Additional observations from a re-analysis of the deposited data

How the results depend on the processing

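No member was called by any alternative, the smallest adjusted p being 0.338, and H2-Aa, H2-Ab1, Cd74 and Irf1 kept the sign of their log2 change in all of them. Over all genes the calls moved from 34 higher and 8 lower to 275 and 128 with DESeq2, 122 and 40 with no filter, 95 and 26 at an adjusted p under 0.10, 54 higher with the sex term, and 5 and 2 in the 4 libraries with Xist; reads recovered from CPM gave 34 and 8. With the replicate block they were 2 and 0. Deviations from the genotype mean gave no sign that equal numbers pair the libraries (correlation -0.26, -0.01 and -0.22 for replicates 1, 2 and 3). Sex transcripts and tissue mix also enter these deviations, so pairing was not excluded. Leaving out 1 library gave 1 to 184 higher and 1 to 35 lower, the most without Plg WT 1. The causes were not tested.

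Log2 changes near 0 or set by 1 library turned sign. The Cxcl9 log2 change was -0.31 with the replicate block, -0.0265 with the sex term, -0.88 in the 4 libraries with Xist and -1.41 to 1.34 with 1 library left out. Cxcl10 was at -0.21 with limma-voom, -0.75 with the replicate block, -0.32 with the sex term, -1.53 in the 4 libraries with Xist and -2.44 to 1.58 with 1 library left out. Cxcr3 was at 0.18 with limma-voom and 0.10 with the replicate block, Cd4 at 0.11 with limma-voom, Rfx5 at 0.32 and Il12rb1 at -0.16 in the 4 libraries with Xist, and Nlrc5 at -0.0098 and Psmb7 at -0.0047 with upper-quartile factors. With 1 library left out, ranges that included both signs were -0.34 to 0.72 for Gbp2, -0.23 to 0.0468 for H2-Eb1, -0.58 to 0.0391 for Ciita, -0.31 to 7e-04 for Psmb8, -0.42 to 0.65 for Nlrc5, -0.23 to 0.13 for Rfx5, -0.50 to 0.85 for Cxcr3, -0.0339 to 0.0673 for Psmb5, -0.0518 to 0.0993 for Psmb7 and -0.73 to 0.27 for Cd4; the log2 ratios ran from -0.0599 to 0.0742 for H2-Eb1 to H2-Ab1, -0.50 to 0.0445 for Ciita to H2-Ab1 and -0.34 to 0.0093 for Psmb8 to Psmb5.
Depth limits Ifng, Cxcr3, Cxcl11 and the low libraries of Cxcl10, where a few reads decide the level.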
